A study of Mus musculus with 27 samples.

Results

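The livers compared here came from mice in which liver injury was induced by CCl4 and hyaluronan production was targeted by a drug or by RNA interference. The comparison set the 4 mice treated with CCl4 and the drug 4-methylumbelliferone (4MU) against the 4 treated with CCl4 and lipid nanoparticles carrying an siRNA to Has2 (siHAS2-LNP), 8 of the 27 libraries of the study. Every column of the deposited count table that names one of these groups was used, and the genes were those with a mean of at least 10 counts over all 27 libraries, which left 14114 of 55414. All the animals were 8-week-old female Balb/c mice, and poly(A) RNA was sequenced from whole liver homogenate. The CCl4 mice were injected intraperitoneally for 2 weeks. The CCl4+4MU group was gavaged daily with 600 mg/kg 4MU in a carboxymethyl cellulose slurry, with no tail vein injection listed. The CCl4+siHAS2 group received the nanoparticles by tail vein in repeated doses, 1 mg/kg at first and 0.5 mg/kg later, with no gavage listed. Both treatments were started ahead of the CCl4. Active agent, route, vehicle, schedule and nanoparticle therefore differ together between these groups and cannot be told apart within the comparison. The same pair of treatments was also given to uninjured mice injected intraperitoneally with olive oil (3 with 4MU, 3 with siHAS2-LNP). These mice share no library with the CCl4 groups. CCl4+siLuc (4 mice, luciferase siRNA in the same nanoparticle), CCl4 alone (2 mice) and control mice (4 mice, intraperitoneal olive oil and tail vein PBS with no nanoparticle) are used for reference values. So are uninjured siLuc mice (3 mice, intraperitoneal olive oil and luciferase siRNA nanoparticles by tail vein).

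Hyaluronan is a long unbranched polysaccharide of the extracellular matrix, made at the plasma membrane by the synthases HAS1, HAS2 and HAS3 from the UDP-sugars UDP-glucuronic acid and UDP-N-acetylglucosamine. 4MU is itself glucuronidated and sulfated in the liver, draws on the UDP-glucuronic acid pool and is known as an inhibitor of hyaluronan synthesis by every synthase, whereas an siRNA to Has2 targets the transcript of a single one. In the injured liver, stellate cells turn into matrix-producing myofibroblasts, resident macrophages (Kupffer cells) take up debris and particles from sinusoidal blood, and monocytes are recruited from the circulation.

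The siRNA is shown first because it defines one side of the comparison. The strands are written 5′ to 3′ without their dTdT overhangs, with the seed (bases 2 to 8) of the antisense strand in capitals. The site in Has2 has the matching bases in capitals.
antisense strand: aUUGCAAAcauuuccgua
sense strand: uuacggaaauguuugcaa
site in Has2: ttacggaaatgTTTGCAAt
The site lies at chr15:56545288-56545306 (GRCm39, minus strand), bases 905 to 923 of a transcript of 4982 bases, in the coding sequence within exon 2 of 4.

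The targeted transcript gave no check of the groups in these libraries. Has2 was at 0 counts in each of the 8 CCl4 libraries compared and in the 6 uninjured libraries given the same treatments, and 3 counts were found in all 27 libraries together. A count of 0 allows up to 3 counts, which is 0.107 to 0.15 CPM (counts per 1000000 counts, TMM-scaled) in 7 of the 8 CCl4 libraries and 0.401 CPM in the shallowest. Has1 and Has3 totalled 67 and 103 counts over the 27 libraries. None of the synthases reached the mean of 10 counts, so a difference in their mRNA between 4MU and siHAS2-LNP was not detectable at this depth.

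The 8 libraries held 7044386 to 29425937 counts. CCl4+siHAS2 mouse 4 was the shallowest with 7044386 counts, while the other 7 held at least 18278395. Hepatocyte transcripts dominated each one, with Alb at 86445 to 149049 CPM and Apoa1 at 8239 to 17779 CPM, the secretory products of the labelled tissue. Mice that stood apart from their groups are named here because the results are given with and without them. In CCl4+siHAS2 mouse 3, mitochondrially encoded genes took 8.1% of the counts, against 2.36 to 4.27% in the other 7 mice. The same mouse had the largest share of counts in long noncoding RNA (lncRNA) and unclassified (TEC) genes, 0.949%, with 0.492 to 0.679% in the other CCl4+siHAS2 mice and 0.379 to 0.426% in the CCl4+4MU mice. CCl4+4MU mouse 4 alone held high levels of epithelial genes described below. The mice are separate animals, so the p-values measure the spread between mice. This spread was estimated over all 27 libraries in 1 fit, uninjured groups included, and not from the 8 mice alone.

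**Figure D1:**
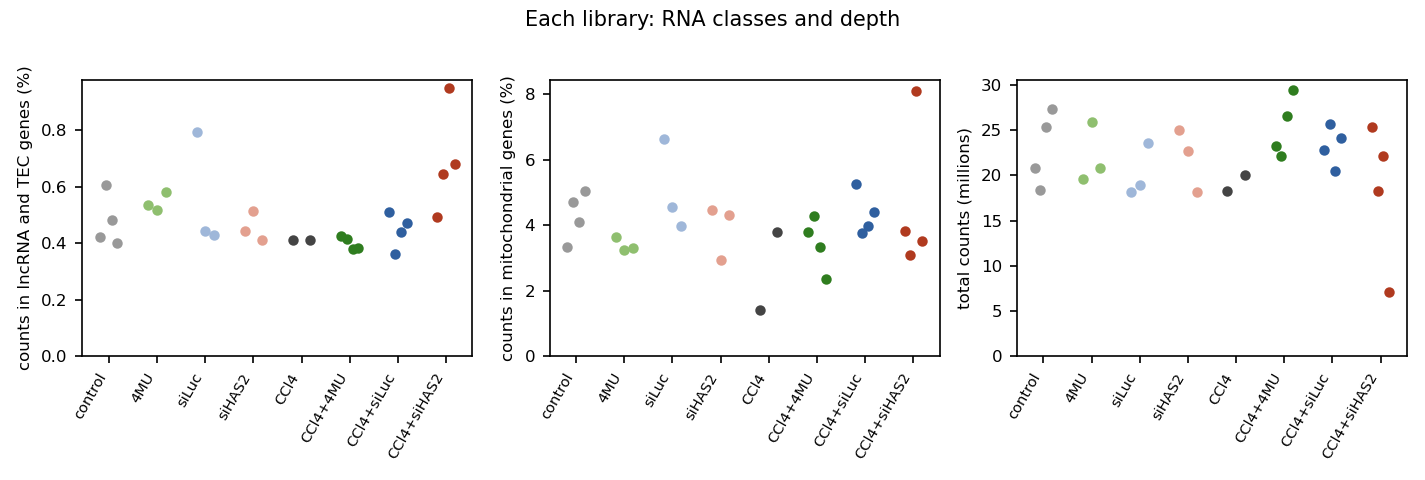
Share of counts in lncRNA and TEC genes (left), share in mitochondrially encoded genes (middle) and total counts in units of 1000000 (right), 1 point per mouse and 1 column per group. CCl4+siHAS2 mouse 3 has the highest share in both left panels (0.949% and 8.1%), and CCl4+siHAS2 mouse 4 the lowest total (7044386 counts).

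With edgeR's quasi-likelihood test at a Benjamini-Hochberg adjusted p of 0.05, 172 genes differed between CCl4+4MU and CCl4+siHAS2 livers, 1.22% of the 14114 tested. Of these, 108 were higher with 4MU (0.765% of genes tested, median log2 fold change 1.46) and 64 were lower (0.453%, median -1.05). The unadjusted p was under 0.05 for 2629 genes, and the median log2 fold change over all genes was -0.00. In 94 of the 108 and 55 of the 64, the lowest mouse of one group lay beyond the highest mouse of the other. Over all genes tested, 874 (6.19%) were higher in all 4 CCl4+4MU mice than in all 4 CCl4+siHAS2 mice and 797 (5.65%) were lower. Of the 108 genes higher with 4MU, 103 are protein coding and 4 are immunoglobulin segments. Of the 64 lower genes, 27 (42.2%) are lncRNA or TEC genes, a class that makes up 6.28% of the genes tested.

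The number of calls depended on single mice. It was 93, 218, 106 and 28 without CCl4+4MU mouse 1, 2, 3 and 4, and 390, 42, 13 and 67 without CCl4+siHAS2 mouse 1, 2, 3 and 4. Leaving out both mice numbered 4 left 14 calls, 13 higher and 1 lower with 4MU. All 13 genes called without CCl4+siHAS2 mouse 3 were also called without each of the other 7 mice in turn. Of these, 11 were higher with 4MU: the macrophage receptors and complement components Marco, Cd163, Vsig4, Clec4f, C6 and C1qa, the chemokine Cxcl16, the checkpoint receptor gene Vsir, the potassium channel gene Kcnj16, the ubiquitin ligase gene Lnx1 and the phosphatidate phosphatase gene Lpin1. Itgb2l, an integrin subunit gene, and the predicted lncRNA gene Gm43597 were lower.

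**Figure D2:**
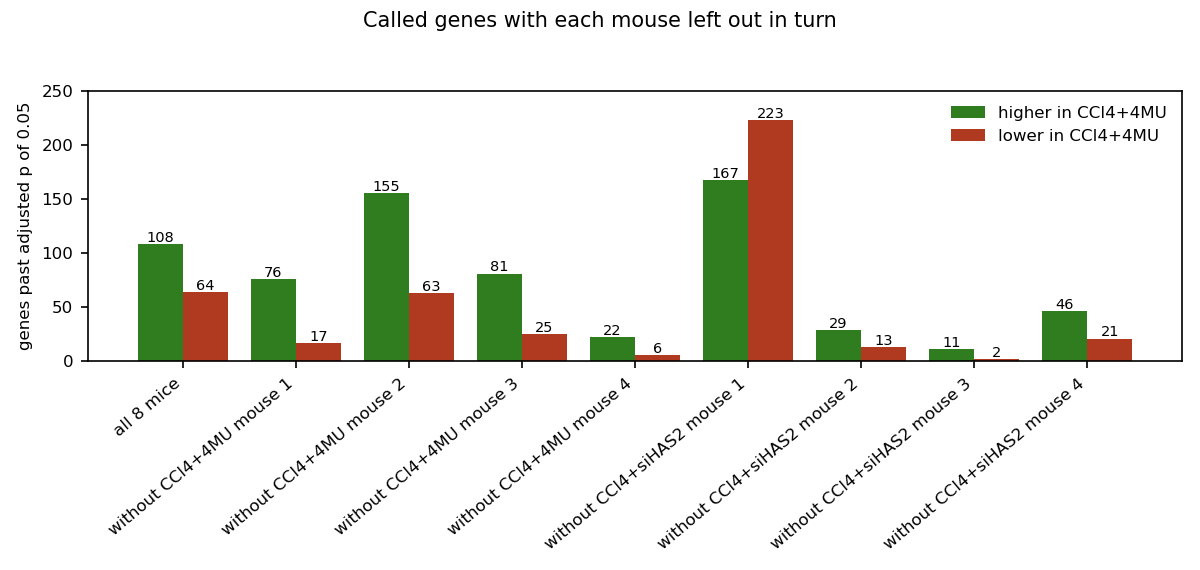
Number of genes past an adjusted p of 0.05 (y axis) with all 8 mice and without each mouse in turn (x axis), with green bars for genes higher and red bars for genes lower in CCl4+4MU. The counts range from 167 higher and 223 lower without CCl4+siHAS2 mouse 1 to 11 higher and 2 lower without CCl4+siHAS2 mouse 3.

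Genes of Kupffer cells kept their calls whichever mouse was left out, with 1 exception among those called. Of 13 Kupffer cell markers tested, 5 rose with 4MU relative to siHAS2-LNP and none fell. Over all genes tested, 0.765% were called higher and 0.453% lower. The median log2 fold change of the 13 was 1.06 against -0.00 over all genes. Marco, a scavenger receptor that binds bacteria and particles (chr1:120402267-120432753, minus strand), was at 19.4, 9.67, 9.76 and 33.5 CPM in the CCl4+4MU mice. In the CCl4+siHAS2 mice it was at 0.0391, 0.146, 0.281 and 0 CPM, from 0 to 7 counts in a library. The groups were far apart (log2 fold change 6.97, SE 0.71, adjusted p = 5.39e-06). Cd163, the haemoglobin scavenger receptor (chr6:124281606-124307560, plus strand), stood at 7.23, 5.49, 4.99 and 7.05 CPM with 4MU and 0.587, 0.488, 0.241 and 0.267 CPM with siHAS2-LNP (log2 fold change 3.88, SE 0.41, adjusted p = 5.39e-06). The lowest CCl4+4MU mouse was 8.5-fold above the highest CCl4+siHAS2 mouse. Vsig4, a complement receptor that captures opsonised particles (chrX:95290807-95337044, minus strand), was at 41.1, 25.6, 22.5 and 37.2 CPM against 5.01, 7.76, 5.98 and 4.27 CPM (log2 fold change 2.43, SE 0.34, adjusted p = 0.000782). Clec4f, a lectin restricted to Kupffer cells in mice (chr6:83621524-83633169, minus strand), was at 128, 70.3, 78.0 and 157 CPM against 20.4, 33.7, 27.9 and 36.6 CPM (log2 fold change 1.88, SE 0.28, adjusted p = 0.001), again without overlap. Fcna, a ficolin that starts the lectin pathway of complement, was also higher (log2 fold change 1.40, SE 0.32, adjusted p = 0.0285), but missed the threshold without CCl4+4MU mouse 1 or 4 or CCl4+siHAS2 mouse 2 or 3 (log2 fold change 1.11 to 1.37, adjusted p 0.0606 to 0.156). Coordinates are those of GRCm39.

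Other residency markers did not pass the test. The efferocytosis receptor Timd4 had a log2 fold change of 1.06 (SE 0.29, adjusted p = 0.0622), the secreted scavenger protein gene Cd5l had a log2 fold change of 0.63 (SE 0.26, adjusted p = 0.191), and the folate receptor gene Folr2 had a log2 fold change of 1.22 (SE 0.53, adjusted p = 0.219). The summed level of the 13 markers was 355 to 568 CPM in the CCl4+4MU mice and 258 to 298 CPM in the CCl4+siHAS2 mice, so the summed levels did not overlap. The 13 also include Clec1b, Xcr1, Cdh5, Slc40a1 and Il18bp. Cdh5 is on the sinusoidal endothelium list as well, so the sum cannot be assigned to Kupffer cells alone. In homogenate, fewer cells of a type and less RNA per cell cannot be told apart.

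**Figure D3:**
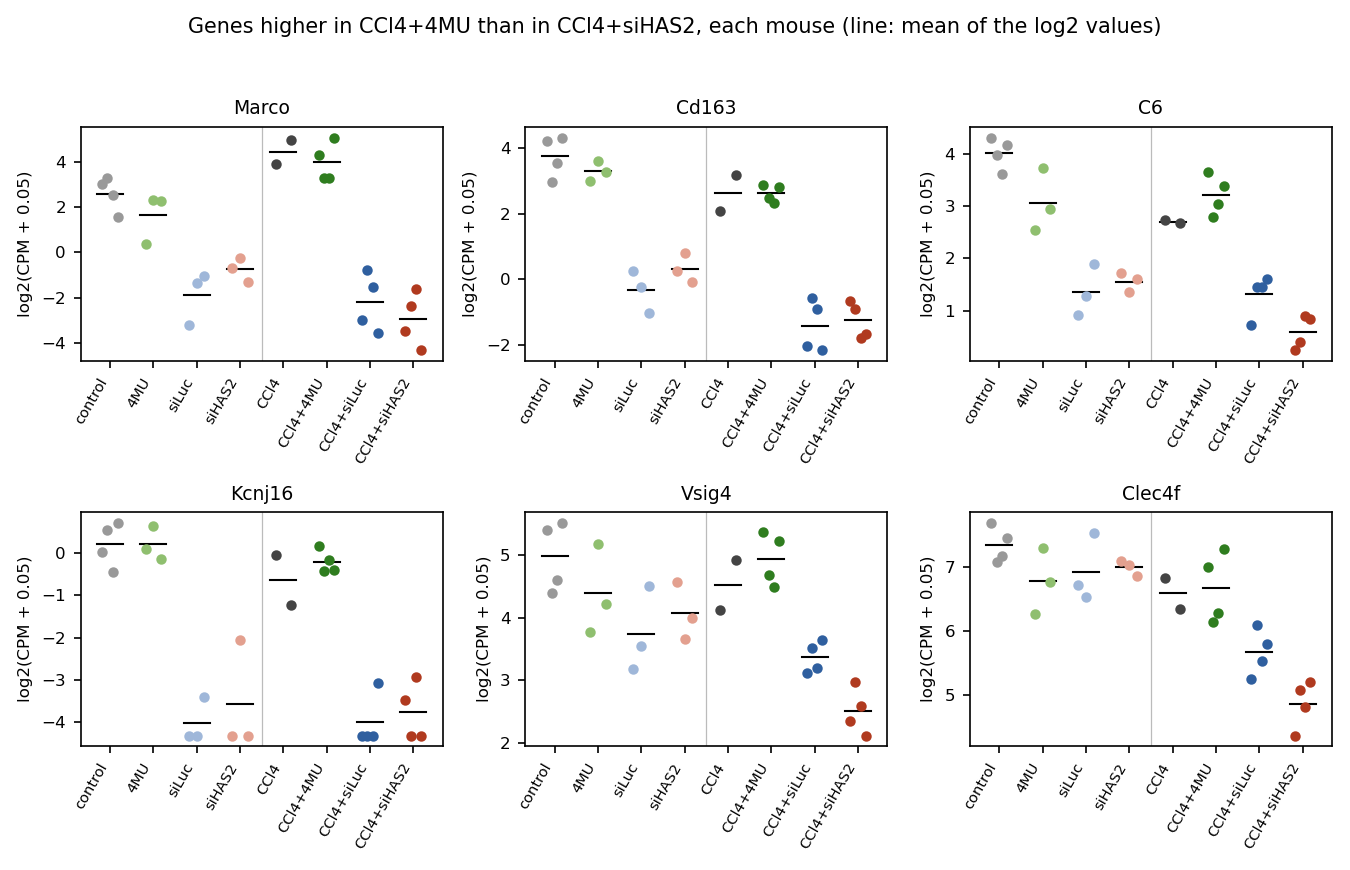
Level of 6 genes as log2(CPM + 0.05) in each mouse of the 8 groups, 1 point per mouse with the mean of the log2 values as a line, uninjured groups left and CCl4 groups right of the grey line. Marco, Cd163, C6 and Kcnj16 are lower in each of the 14 libraries given a nanoparticle than in any of the other 13, while Vsig4 and Clec4f overlap in uninjured livers.

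Levels in the reference groups set these differences beside mice given neither agent. Marco was at 0.0784, 0.540, 0.300 and 0.0347 CPM in the CCl4+siLuc mice, at 15 and 31.5 CPM in the CCl4 mice without a nanoparticle and at 7.99, 9.56, 5.81 and 2.9 CPM in the controls. In uninjured mice given the luciferase siRNA it was at 0.0572, 0.342 and 0.439 CPM. Low Marco was thus shared by the 4 groups given a nanoparticle. Marco, Cd163, C6, Kcnj16 and the procollagen enhancer gene Pcolce2 were the 5 genes of 14114 that were lower in each of the 14 nanoparticle libraries than in each of the other 13, and no gene was higher in this way. For Marco the highest nanoparticle library was at 0.802 CPM and the lowest other library at 1.23 CPM, and for Cd163 at 1.70 and 4.19 CPM. For Vsig4 and Clec4f the ranges overlapped (4.27 to 23.6 against 13.5 to 45.7 CPM, and 20.4 to 186 against 70.3 to 208 CPM). For Marco the fits against CCl4+siLuc, which share libraries with the main comparison, gave a log2 fold change of 6.27 (SE 0.64, adjusted p = 4.24e-06) for CCl4+4MU and a log2 fold change of -0.70 (SE 1.02, adjusted p = 0.804) for CCl4+siHAS2. For Cd163 the CCl4+siLuc mice were at 0.196, 0.617, 0.480 and 0.173 CPM, the CCl4 mice at 4.19 and 9.04 CPM and the controls at 18.7, 7.73, 11.6 and 19.9 CPM. Its values against CCl4+siLuc were a log2 fold change of 4.1 (SE 0.41, adjusted p = 3.88e-06) with 4MU and a log2 fold change of 0.22 (SE 0.51, adjusted p = 0.888) with siHAS2-LNP. Clec4f was at 38.0, 68.0, 46.0 and 55.5 CPM with CCl4+siLuc and at 208, 136, 145 and 176 CPM in controls. All 4 CCl4+siHAS2 mice, with the Clec4f levels given further above, lay below this CCl4+siLuc range. For Clec4f the 2 nanoparticle groups with CCl4 were therefore not at the same level. Relative to CCl4+siLuc, 88 genes (0.623%) were called in CCl4+4MU livers and 154 (1.09%) in CCl4+siHAS2 livers. The labels give the tail vein route both to the controls, with PBS alone, and to the uninjured siLuc mice, with the nanoparticle and its siRNA. The paper also describes gavage of control mice with carboxymethyl cellulose slurry, which the control labels do not list. Between controls and uninjured siLuc mice Marco was at 2.9 to 9.56 CPM against 0.0572 to 0.439 CPM and Cd163 at 7.73 to 19.9 CPM against 0.439 to 1.14 CPM, without overlap. The part of nanoparticle, siRNA and gavage in these values was not tested.

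Among complement genes, 4 of 30 tested rose with 4MU and none fell (median log2 fold change 0.26), against 0.765% of all genes called higher. C6, a terminal pathway component that enters the membrane attack complex (chr15:4756525-4844580, plus strand), was at 12.4, 6.83, 8.17 and 10.3 CPM in the CCl4+4MU mice and at 1.14, 1.27, 1.81 and 1.74 CPM in the CCl4+siHAS2 mice (log2 fold change 2.69, SE 0.28, adjusted p = 5.39e-06). It was also higher with 4MU in uninjured livers (log2 fold change 1.61, SE 0.30, adjusted p = 0.00649), a call lost without siHAS2 mouse 2 (adjusted p 0.0562). The other 3 encode the chains of C1q, which recognises immune complexes and apoptotic cells and is made chiefly by macrophages. C1qa stood at 82.6, 64.2, 75.7 and 134 CPM with 4MU and 31.5, 38.1, 25.6 and 34.3 CPM with siHAS2-LNP (log2 fold change 1.46, SE 0.21, adjusted p = 0.000932). C1qb and C1qc were higher by 1.28 and 1.16 on the log2 scale, with adjusted p of 0.00719 and 0.00741, and missed the threshold without CCl4+4MU mouse 4 or CCl4+siHAS2 mouse 3 (adjusted p 0.0501 to 0.0742).

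A further set of genes kept its call whichever mouse was left out. Cxcl16, a transmembrane chemokine that attracts CXCR6-bearing T cells, was at 17.9, 14.6, 15.6 and 22.1 CPM against 8.57, 6.40, 6.46 and 4.41 CPM (log2 fold change 1.42, SE 0.21, adjusted p = 0.001). Lnx1, which encodes a ubiquitin ligase, had a log2 fold change of 2.17 (SE 0.36, adjusted p = 0.00427), and Vsir, which encodes an inhibitory receptor of myeloid and T cells, had a log2 fold change of 1.19 (SE 0.20, adjusted p = 0.00346). Kcnj16, an inward-rectifier potassium channel gene, had 25, 14, 23 and 20 counts in the CCl4+4MU libraries and 1, 0, 2 and 0 in the CCl4+siHAS2 libraries. All CCl4+siHAS2 libraries lay at or under the 3-count floor, so Kcnj16 was at least 4.25-fold higher against the group's mean floor. In uninjured livers it was at 1.02, 1.52 and 0.861 CPM with 4MU and 0, 0.189 and 0 CPM with siHAS2-LNP (log2 fold change 4.05, SE 0.74, adjusted p = 0.00649).

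On the list of monocyte and scar macrophage markers, the genes called higher with 4MU in the injured liver were class II and general macrophage genes, with calls that depended on single mice. Of 26 tested, 9 rose, against 0.765% of all genes, and none fell, with a median log2 fold change of 0.95. Of the 26, 15 were higher in all 4 CCl4+4MU mice than in all 4 CCl4+siHAS2 mice, against 6.19% of all genes. None of the 26 was lower in this way. The summed level of the 26 was 970.3 to 1464 CPM in CCl4+4MU mice and 459.8 to 704 CPM in CCl4+siHAS2 mice. In the reference groups this sum was 740.4 to 1407 CPM with CCl4+siLuc and 729.4 to 800 CPM with CCl4 alone. The MHC class II gene H2-Ab1 was at 40.6, 19.5, 37.7 and 80.3 CPM against 12.6, 14.6, 11.1 and 12.2 CPM (log2 fold change 1.82, SE 0.37, adjusted p = 0.0161). Cd74, the invariant chain that guides class II molecules, had a log2 fold change of 1.67 (SE 0.36, adjusted p = 0.0214). Lyz2, the lysozyme of myeloid cells, was at 287, 221, 438 and 273 CPM against 112, 139, 72.0 and 97.5 CPM (log2 fold change 1.53, SE 0.30, adjusted p = 0.0159). Csf1r, the receptor on which macrophages depend for survival, had a log2 fold change of 0.99 (SE 0.22, adjusted p = 0.025), and the lysosomal protease gene Ctss had a log2 fold change of 1.11 (SE 0.27, adjusted p = 0.0389). The Fc receptor gene Fcgr3, the integrin gene Itgax and the class II genes H2-Aa and H2-Eb1 made up the rest of the 9, with log2 fold changes of 1.22, 1.61, 1.42 and 1.67 and adjusted p of 0.0161, 0.0243, 0.0428 and 0.037. The monocyte genes Ccr2 and Ly6c2, named after their values were seen, were not among them. The part of recruited monocytes in the levels of the 9 was not tested. Ccr2, the receptor that draws monocytes from blood, was at 7.83, 6.48, 9.35 and 4.06 CPM against 9.86, 9.47, 10.8 and 6.41 CPM, with overlap (log2 fold change -0.42, SE 0.34, adjusted p = 0.508), and Ly6c2, a surface marker of inflammatory monocytes, had a log2 fold change of 0.16 (SE 0.47, adjusted p = 0.884).

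None of these 9 calls held without CCl4+siHAS2 mouse 3 (log2 fold change 0.89 to 1.76, adjusted p 0.0982 to 0.189), and none of the 26 markers was called without both mice numbered 4. The count was 3 without CCl4+4MU mouse 4, 2 without CCl4+siHAS2 mouse 4, 4 without CCl4+siHAS2 mouse 2 and 5 without CCl4+4MU mouse 1 or 3. CCl4+siHAS2 mouse 3 is the library with the largest mitochondrial and lncRNA shares, and the part of these shares in the calls was not tested. The class II and Itgax genes are also expressed by dendritic cells. Ccr3, an eosinophil chemokine receptor gene, was higher with 4MU (log2 fold change 2.16, SE 0.45, adjusted p = 0.0198), as was Igkc, the kappa light chain of B lineage cells (log2 fold change 1.22, SE 0.25, adjusted p = 0.0168), the only one of 21 T, NK, B and plasmacytoid dendritic cell markers called. Both lost the call without CCl4+siHAS2 mouse 2 (adjusted p 0.0846 and 0.0696) or mouse 3 (0.118 and 0.0838), and Igkc also without CCl4+4MU mouse 4 (0.109). None of 11 neutrophil markers passed although their median log2 fold change was 1.19. The neutrophil alarmin genes S100a8 and S100a9 were at 12.6, 5.98, 11.3 and 13.5 CPM and 19.5, 9.72, 18.2 and 26.6 CPM with 4MU and at 6.73, 4.64, 4.09 and 3.2 CPM and 11.9, 6.98, 6.14 and 3.74 CPM with siHAS2-LNP, with adjusted p of 0.226 and 0.149.

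The direction of the macrophage genes differed between injured and uninjured livers. In uninjured mice, 184 genes were called between 4MU and siHAS2-LNP (1.30% of genes tested), 26 higher with 4MU (0.184%) and 158 lower (1.12%). The count was 47 and 64 without 4MU mouse 1 and 3, and 52 and 92 without siHAS2 mouse 2 and 3. Of the 26 monocyte markers, 7 were lower and none higher (2 lower without 4MU mouse 1 or 3), and their summed level was 184 to 534 CPM with 4MU and 617 to 752 CPM with siHAS2-LNP. The fractalkine receptor gene Cx3cr1 was at 0.461, 1.37 and 0.658 CPM with 4MU and 9.09, 10.6 and 8.91 CPM with siHAS2-LNP (log2 fold change -3.47, SE 0.44, adjusted p = 0.000515). Ccr1, a receptor for inflammatory chemokines, was at 0.359, 0.117 and 0.456 CPM against 3.72, 4.29 and 3.65 CPM (log2 fold change -3.67, SE 0.50, adjusted p = 0.000559). In CCl4 livers the log2 fold changes of Cx3cr1 and Ccr1 were -0.75 and -0.68, with adjusted p of 0.219 and 0.326. Rac2, a GTPase of blood cells, Ly86, a partner of the receptor RP105, and the interferon-induced Ifi27l2a were lower with 4MU in uninjured mice by 1.41, 1.67 and 1.48 on the log2 scale, with adjusted p of 0.000891, 0.000891 and 0.0013. The calls of Cx3cr1, Ccr1, Rac2, Ly86 and Ifi27l2a held without each of the 6 uninjured mice.

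The difference between the settings was tested as an interaction, the 4MU-siHAS2 difference in CCl4 livers minus that in uninjured livers. It was called for 257 genes (1.82%), 184 with a positive value (1.30%) and 73 with a negative one (0.517%). The count was 101 and 149 without 4MU mouse 1 and 3, 147, 153 and 110 without siHAS2 mouse 1, 2 and 3, 118 without CCl4+siHAS2 mouse 3 and 433 without CCl4+siHAS2 mouse 1. All 16 monocyte markers called were positive, of 26 tested, and the list's median interaction was 2.01, against -0.00 over all genes. Leaving out each of the 14 mice in turn left 11 to 16 of them. The C1q gene C1qc (interaction 2.17, SE 0.32, adjusted p = 0.00172), the leukocyte lysosomal gene Laptm5 (interaction 1.66, SE 0.23, adjusted p = 0.00106) and Rac2 (interaction 2.16, SE 0.27, adjusted p = 0.000292) were among the genes with the lowest adjusted p, together with Pld4 and Tifab, an endolysosomal nuclease gene and a gene of innate immune signalling (interaction 1.85, SE 0.28, adjusted p = 0.00172 and interaction 1.73, SE 0.27, adjusted p = 0.00172). In CCl4 livers Laptm5 and Rac2 were called higher with 4MU by 0.77 and 0.76 on the log2 scale (adjusted p 0.0137 and 0.0316). Both lost that call without CCl4+4MU mouse 4, CCl4+siHAS2 mouse 3 or CCl4+siHAS2 mouse 4, and Rac2 also without CCl4+4MU mouse 1 or 3 or CCl4+siHAS2 mouse 2. On the Kupffer list, 5 of 13 had a called interaction, all positive, including Clec4f (interaction 2.04, SE 0.41, adjusted p = 0.00969), which held without each mouse, and Marco (interaction 4.33, SE 1.06, adjusted p = 0.0319). The Marco interaction held without CCl4+4MU mouse 1, 2 or 3, CCl4+siHAS2 mouse 3 or 4MU mouse 2 or 3 and was lost without any of the other 8 mice (interaction 3.85 to 5.19). The 13 markers gave 2 to 7 called interactions over the 14 fits, the fewest without 4MU mouse 1.

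Marco and Cd163 did not follow the monocyte pattern in uninjured livers. Both were called higher with 4MU there too, Marco at 1.23, 4.96 and 4.76 CPM against 0.565, 0.802 and 0.359 CPM (log2 fold change 2.64, SE 0.67, adjusted p = 0.0448), and Cd163 at 7.99, 12.2 and 9.62 CPM against 1.13, 1.70 and 0.897 CPM (log2 fold change 2.99, SE 0.41, adjusted p = 0.000559). The uninjured Marco call held without 4MU mouse 1 and was lost without any of the other 5 mice (adjusted p up to 0.171), whereas that of Cd163 held without each. Of the 108 genes higher with 4MU in CCl4 livers, 57 had a positive log2 fold change in uninjured livers, 5 were called higher and 6 called lower there. Over all 14114 genes, 7235 had a positive log2 fold change in uninjured livers.

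**Figure D4:**
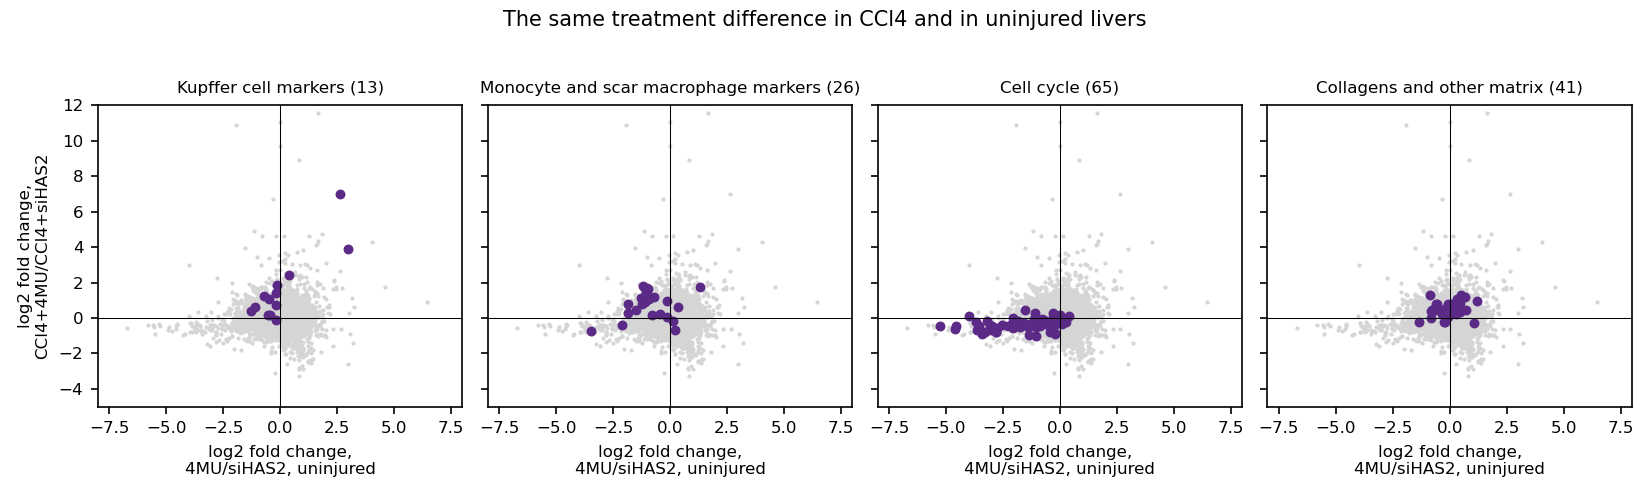
Log2 fold change of 4MU over siHAS2-LNP in uninjured livers (x axis) and in CCl4 livers (y axis), with all 14114 genes in grey and the members of 4 gene lists in purple (number in each title). Most monocyte markers lie above 0 in CCl4 livers (22 of 26) and left of 0 in uninjured livers, Marco and Cd163 lie above and right of 0, and cell cycle genes spread to the left at values near 0 on the y axis.

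Called genes on the lists of hepatocyte metabolism were few in CCl4 livers, and those on the lists were higher with 4MU (Chka, on none of the lists, was lower and is given further on). Of 35 lipogenesis and triglyceride storage genes, 3 rose, against 0.765% of all genes, and none fell (median log2 fold change 0.26). Lpin1, a phosphatidate phosphatase that also coactivates fasting genes, was at 36.7, 74.7, 48.6 and 58.3 CPM against 14.8, 11.2, 12.8 and 19.8 CPM (log2 fold change 1.91, SE 0.29, adjusted p = 0.00138) and kept its call without each mouse. Its paralogue Lpin2 (log2 fold change 0.87, SE 0.21, adjusted p = 0.0392) and Thrsp, a lipogenic regulator (log2 fold change 3.36, SE 0.78, adjusted p = 0.0327), did not. Mfsd2a, a fasting-induced transporter of lysophosphatidylcholine, was at 12, 33.1, 37.0 and 44.7 CPM against 3.41, 3.91, 2.29 and 1.87 CPM (log2 fold change 3.42, SE 0.59, adjusted p = 0.00595). It lost its call without CCl4+siHAS2 mouse 3. Lpin2 and Thrsp lost theirs without that mouse, without CCl4+4MU mouse 3 or 4 and without CCl4+siHAS2 mouse 2, and Lpin2 also without CCl4+4MU mouse 2 or CCl4+siHAS2 mouse 1 (adjusted p 0.0544 to 0.156 over the fits that lost a call).

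Among 25 genes of gluconeogenesis and glycolysis, 3 rose, against 0.765% of all genes, and none fell (median 0.29). Pck1, the gluconeogenic phosphoenolpyruvate carboxykinase, was at 1487, 2859.8, 1722 and 2039 CPM against 609, 445, 422 and 556 CPM (log2 fold change 2.00, SE 0.43, adjusted p = 0.0231). The hexokinase gene Hk1 and the aldolase gene Aldoc, which are low in hepatocytes, had a log2 fold change of 1.00 (SE 0.25, adjusted p = 0.0475) and a log2 fold change of 1.25 (SE 0.28, adjusted p = 0.0282). Pericentral hepatocyte genes, those expressed around the central vein where CCl4 is activated, gave 3 called higher of 20 (median 0.10): the ornithine aminotransferase gene Oat (log2 fold change 0.99, SE 0.20, adjusted p = 0.0172), the phosphatase gene Lhpp (log2 fold change 1.17, SE 0.24, adjusted p = 0.0168) and the glutamate transporter gene Slc1a2, at 0.344, 0.0499, 0.259 and 0.712 CPM against 0.0391, 0, 0 and 0.134 CPM. All CCl4+siHAS2 libraries held at most 3 counts of Slc1a2, and the CCl4+4MU mean was 1.74 times the mean of their 3-count floors. The groups overlapped, with CCl4+4MU mouse 2 (0.0499 CPM) below CCl4+siHAS2 mouse 4 (0.134 CPM). Pck1 was the only one of 20 periportal genes called. Each of these 6 genes lost its call without CCl4+4MU mouse 4 and without CCl4+siHAS2 mouse 2 or 3 (adjusted p 0.0611 to 0.255).

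The bile acid uptake transporter gene Slc10a1 was the one called gene of 25 in bile acid synthesis and transport (log2 fold change 0.87, SE 0.21, adjusted p = 0.0441), and Cyp7a1, the rate-limiting enzyme of bile acid synthesis, had a log2 fold change of 0.28 (SE 0.44, adjusted p = 0.761). The carbonyl reductase gene Cbr3 was the one of 41 glutathione and Nrf2 genes (log2 fold change 2.23, SE 0.48, adjusted p = 0.0214). Cebpb, a transcription factor of the acute phase and of stress, was the one of 21 ATF4 response genes (log2 fold change 1.5, SE 0.34, adjusted p = 0.0274). The stress kinase gene Plk3 was the one of 22 p53 targets (log2 fold change 1.35, SE 0.32, adjusted p = 0.0387) and the clock gene Per1 the one of 18 circadian genes (log2 fold change 2.27, SE 0.53, adjusted p = 0.0345). Over all genes tested, 0.765% were called higher. Nnmt, which methylates nicotinamide, was higher as well (log2 fold change 2.18, SE 0.55, adjusted p = 0.049). Slc10a1, Cbr3, Cebpb, Plk3, Per1 and Nnmt each lost the call without CCl4+4MU mouse 4 and without CCl4+siHAS2 mouse 2, 3 or 4 (adjusted p 0.0536 to 0.211). The time of day at which livers were taken is not given in the sources used here.

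No gene of the hyaluronan pathway passed the test in CCl4 livers. None of 18 tested genes of synthesis, breakdown and binding was called (median 0.26), nor any of 9 genes of UDP-sugar supply (median -0.16). Of the 18, 5 were higher in all 4 CCl4+4MU mice than in all 4 CCl4+siHAS2 mice, against 6.19% of all genes. They were the plasma protein genes Itih1, Itih4, Ambp and Habp2 and the scavenger receptor gene Stab2. The summed level of the 18 did not overlap either, at 10148 to 13139.9 CPM with 4MU and 7663 to 9619.5 CPM with siHAS2-LNP, most of it from hepatocyte plasma proteins. Itih4, of the family whose heavy chains bind hyaluronan, had the lowest adjusted p of the 18, at 3678, 4103, 3015 and 3966 CPM against 2531, 2569, 1673 and 2613 CPM (log2 fold change 0.65, SE 0.18, adjusted p = 0.07). The hyaluronan receptor gene Cd44 was at 16.1, 14.8, 19.3 and 23.0 CPM with 4MU and 13.6, 18.5, 14.7 and 14.6 CPM with siHAS2-LNP (log2 fold change 0.25, SE 0.23, adjusted p = 0.572). In uninjured livers Cd44 was lower with 4MU, at 3.79, 8.67 and 9.93 CPM against 17.9, 19.9 and 17.9 CPM (log2 fold change -1.31, SE 0.28, adjusted p = 0.0154), and the interaction was called (interaction 1.57, SE 0.36, adjusted p = 0.0236). Without 4MU mouse 1 or siHAS2 mouse 2 both were lost, and the interaction was lost also without CCl4+4MU mouse 4, CCl4+siHAS2 mouse 3 or siHAS2 mouse 3 (adjusted p up to 0.104 in uninjured livers and 0.068 for the interaction). Hmmr, a hyaluronan-binding protein that also acts at the mitotic spindle, had a log2 fold change of -0.49 (SE 0.36, adjusted p = 0.457) in CCl4 livers and a log2 fold change of -3.79 (SE 0.83, adjusted p = 0.0176) in uninjured livers, a call that was lost without any 4MU mouse or siHAS2 mouse 2. The enzymes that conjugate 4MU were not called either, with 0 of 16 UDP-glucuronosyltransferases (median 0.09) and 0 of 14 sulfotransferases (median 0.48). Of the 14 sulfotransferases, 13 had a positive log2 fold change. In this list 4 were higher in all 4 CCl4+4MU mice than in all 4 CCl4+siHAS2 mice, against 6.19% of all genes, and none was lower. Their summed level did not overlap, at 986.4 to 1295 CPM with 4MU and 873.6 to 936.1 CPM with siHAS2-LNP.

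Collagen and myofibroblast genes did not pass the test. None of 41 collagen and matrix protein genes was called, although 36 had a positive log2 fold change and the median was 0.46. Of the 41, 11 were higher in all 4 CCl4+4MU mice than in all 4 CCl4+siHAS2 mice, against 6.19% of all genes. Col1a1, the main chain of fibrillar collagen, was at 91.0, 56.3, 143 and 30.4 CPM with 4MU and 69.6, 77.0, 49.3 and 48.1 CPM with siHAS2-LNP (log2 fold change 0.40, SE 0.45, adjusted p = 0.65). Col3a1 was at 177, 125, 227 and 54.9 CPM against 83.1, 159, 87.4 and 103 CPM (log2 fold change 0.43, SE 0.39, adjusted p = 0.559). The groups overlapped for both. Acta2, the smooth muscle actin of myofibroblasts, was at 4.09, 1.30, 4.18 and 23.2 CPM against 4.38, 1.71, 2.41 and 1.07 CPM, with CCl4+4MU mouse 4 the highest (log2 fold change 1.71, SE 0.76, adjusted p = 0.224). The follistatin-like gene Fstl1 had a log2 fold change of -0.11 (SE 0.32, adjusted p = 0.883), the monocyte chemokine gene Ccl2 had a log2 fold change of 0.25 (SE 0.57, adjusted p = 0.841), and Hrg, a plasma glycoprotein made by hepatocytes, had a log2 fold change of 0.73 (SE 0.25, adjusted p = 0.117).

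Of 27 crosslinking and turnover genes, 2 were higher with 4MU, against 0.765% of all genes, and none lower. They were Mmp2, a gelatinase of stellate cells (log2 fold change 1.46, SE 0.31, adjusted p = 0.0214), and Timp2, its inhibitor and cofactor (log2 fold change 1.08, SE 0.22, adjusted p = 0.0161). Cygb, the cytoglobin that marks stellate cells, was the one called of 28 stellate and myofibroblast genes (log2 fold change 1.08, SE 0.23, adjusted p = 0.0198). Pcolce2, a procollagen processing enhancer, was also higher (log2 fold change 2.15, SE 0.47, adjusted p = 0.0231). Mmp2, Timp2, Cygb and Pcolce2 each lost the call without CCl4+4MU mouse 4 and without CCl4+siHAS2 mouse 3, and 2, 3 and 1 of them without CCl4+siHAS2 mouse 2, CCl4+siHAS2 mouse 4 and CCl4+4MU mouse 1, with log2 fold changes of 0.92 to 2.35 and adjusted p of 0.0536 to 0.118 over all fits that lost one. Sinusoidal endothelial genes had 0 of 22 called with a median of 0.59, and in uninjured livers 0 of 22 with a median of 0.67. In CCl4 livers 21 of the 22 had a positive log2 fold change. Of these genes, 6 were higher in all 4 CCl4+4MU mice than in all 4 CCl4+siHAS2 mice, against 6.19% of all genes. Their summed level was 323 to 466 CPM with 4MU and 199 to 303 CPM with siHAS2-LNP.

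Lists of general hepatocyte function held no call in CCl4 livers. They comprised 47 xenobiotic P450s, receptors and targets (median 0.20), 6 aryl hydrocarbon receptor targets (0.09), 33 PPAR-alpha and fatty acid oxidation genes (0.05), 21 apolipoprotein genes (0.26), 34 of amino acid catabolism (0.07) and 24 plasma proteins (0.16). Cyp3a11, a drug-metabolising P450 of hepatocytes, had a log2 fold change of -0.09 (SE 0.25, adjusted p = 0.877). Nor was any call found among 29 coagulation genes (median 0.32), 18 of iron handling (0.20), 14 of the growth hormone axis (-0.07), 23 chaperones of the endoplasmic reticulum (-0.07), 16 immediate early genes (0.38), 6 red blood cell genes (-0.27) and 13 mitochondrially encoded genes (-0.28). Of 37 autophagy and lysosome genes, Ctss alone was called. The 31 acute phase genes had none called with a median of 0.56, and 29 of them had a positive log2 fold change. Of the 31, 8 were higher in all 4 CCl4+4MU mice than in all 4 CCl4+siHAS2 mice, against 6.19% of all genes. None of the 31 was lower in this way. Their summed level was 26011 to 32971 CPM with 4MU and 19735 to 25975 CPM with siHAS2-LNP, without overlap. Serum amyloid genes Saa1 and Saa2 had called interactions (interaction 5.01, SE 1.29, adjusted p = 0.0429 and interaction 6.96, SE 1.5, adjusted p = 0.0161). In CCl4 livers Saa2 was at 31.3, 33.9, 42.2 and 131 CPM in the CCl4+4MU mice and 2.97, 8.01, 4.70 and 16.8 CPM in the CCl4+siHAS2 mice. These groups did not overlap, but the difference missed the threshold (log2 fold change 2.96, SE 0.97, adjusted p = 0.111). The Saa2 interaction was lost without 4MU mouse 1 or siHAS2 mouse 2, and that of Saa1 held without CCl4+4MU mouse 2, CCl4+siHAS2 mouse 4 or siHAS2 mouse 1 or 3 and was lost without any of the other 10 mice (interaction 1.45 to 5.56 over the 14 fits).

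Cell cycle, interferon and cholesterol genes held no call in CCl4 livers. Of 65 cell cycle genes, the median log2 fold change there was -0.36. In uninjured livers, 16 of the 65 were lower with 4MU and none higher (median -1.35), against 1.12% of all genes called lower. The anaphase activator gene Cdc20 was at 0.0512, 0.117 and 0.101 CPM with 4MU and 2.63, 2.92 and 5.86 CPM with siHAS2-LNP in uninjured livers. The proliferation marker Mki67 was at 0.922, 1.87 and 0.912 CPM against 9.81, 12.6 and 9.03 CPM (log2 fold change -3.05, SE 0.52, adjusted p = 0.0033). The interaction was called for 8 of the 65, all positive, among them the ubiquitin-conjugating enzyme gene Ube2c (interaction 2.93, SE 0.77, adjusted p = 0.0468) and the replication helicase gene Mcm6 (interaction 3.05, SE 0.81, adjusted p = 0.0493). Both interactions held without CCl4+4MU mouse 2 or 4 or CCl4+siHAS2 mouse 1 and were lost without any of the other 11 mice. The count of 16 was 4 without 4MU mouse 1 or 3, and the calls of Cdc20 and Mki67 held without each of the 6 mice. The count of 8 interactions ran from 1 to 13 with 1 mouse left out. It was 1 without CCl4+4MU mouse 1 or 3, CCl4+siHAS2 mouse 3 or 4, 4MU mouse 1 or 3 or any siHAS2 mouse. Of 53 interferon-stimulated genes (median -0.16 in CCl4 livers), 7 were lower with 4MU in uninjured livers (median -0.72), including Isg15 (log2 fold change -1.29, SE 0.31, adjusted p = 0.034) and Ifit3 (log2 fold change -1.41, SE 0.31, adjusted p = 0.0181). Isg15 lost its call without each of the 6 mice and Ifit3 without any 4MU mouse or siHAS2 mouse 2. The count of 7 was 1 without 4MU mouse 1 or siHAS2 mouse 2. In CCl4 livers 9 of the 53 were lower in all 4 CCl4+4MU mice than in all 4 CCl4+siHAS2 mice. Over all genes 5.65% were lower in this way, and none of the 53 was higher. Of 26 cholesterol synthesis and uptake genes, 24 had a positive log2 fold change in CCl4 livers (median 0.51). The median in uninjured livers was -0.90, and the interaction was called for mevalonate kinase Mvk (interaction 2.11, SE 0.47, adjusted p = 0.0194) and squalene synthase Fdft1 (interaction 1.69, SE 0.43, adjusted p = 0.0429). The Mvk interaction was lost without 4MU mouse 3 or siHAS2 mouse 2, and that of Fdft1 without 10 of the 14 mice, all but CCl4+4MU mouse 2 or 3, CCl4+siHAS2 mouse 4 and siHAS2 mouse 3.

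Nuclear RNAs stood among the genes lower with 4MU. Neat1, the lncRNA scaffold of paraspeckles (chr19:5874736-5897132, minus strand), was at 252, 169.9, 122 and 197 CPM in the CCl4+4MU mice and 352, 502, 1072 and 753 CPM in the CCl4+siHAS2 mice (log2 fold change -1.85, SE 0.43, adjusted p = 0.0316). Kcnq1ot1, an imprinted antisense lncRNA within the Kcnq1 locus, was at 3.87, 4.34, 3.84 and 3.24 CPM against 4.97, 22.1, 42.2 and 30.3 CPM (log2 fold change -2.70, SE 0.58, adjusted p = 0.0231). CCl4+siHAS2 mouse 3 was the highest for both. Jpx, an activator of X inactivation, had a log2 fold change of -1.06 (SE 0.27, adjusted p = 0.0496), and Speer9-ps1, annotated as a lncRNA, had a log2 fold change of -1.96 (SE 0.47, adjusted p = 0.0363). The 887 lncRNA and TEC genes tested had a median log2 fold change of -0.44, against 0.02 for 12717 protein coding genes, and a median of 0.18 in uninjured livers. The interaction was called and negative for Kcnq1ot1 (interaction -3.63, SE 0.86, adjusted p = 0.0271) and Jpx (interaction -1.75, SE 0.41, adjusted p = 0.0275). The first of these was lost without CCl4+4MU mouse 4, CCl4+siHAS2 mouse 3, 4MU mouse 3 or siHAS2 mouse 1 or 3, and the other without CCl4+4MU mouse 1, CCl4+siHAS2 mouse 3, 4MU mouse 1 or 2 or siHAS2 mouse 1 or 3. Neat1, Kcnq1ot1, Jpx and Speer9-ps1 each lost the call without CCl4+4MU mouse 3 or 4 and without CCl4+siHAS2 mouse 2, 3 or 4 (log2 fold change -2.76 to -0.84, adjusted p 0.0536 to 0.245). The share of counts in this class was highest in CCl4+siHAS2 mouse 3, and the part of RNA composition in these calls was not tested. The strand setting of the counting is not given in the sources used here, so Kcnq1ot1 and Kcnq1 may hold some of each other's reads.

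Gm43597, a predicted lncRNA gene, was the one transcript of this class lower whichever mouse was left out, at 1.08, 0.947, 0.961 and 0.925 CPM against 2.66, 1.90, 2.33 and 2.14 CPM (log2 fold change -1.21, SE 0.22, adjusted p = 0.00665). Itgb2l, an integrin beta chain gene of myeloid cells, also kept its call, at 0.904, 1.05, 0.813 and 1.03 CPM against 2.31, 2.54, 2.65 and 3.07 CPM (log2 fold change -1.46, SE 0.27, adjusted p = 0.00719), and its interaction was called (interaction -2.42, SE 0.41, adjusted p = 0.00267).

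**Figure D5:**
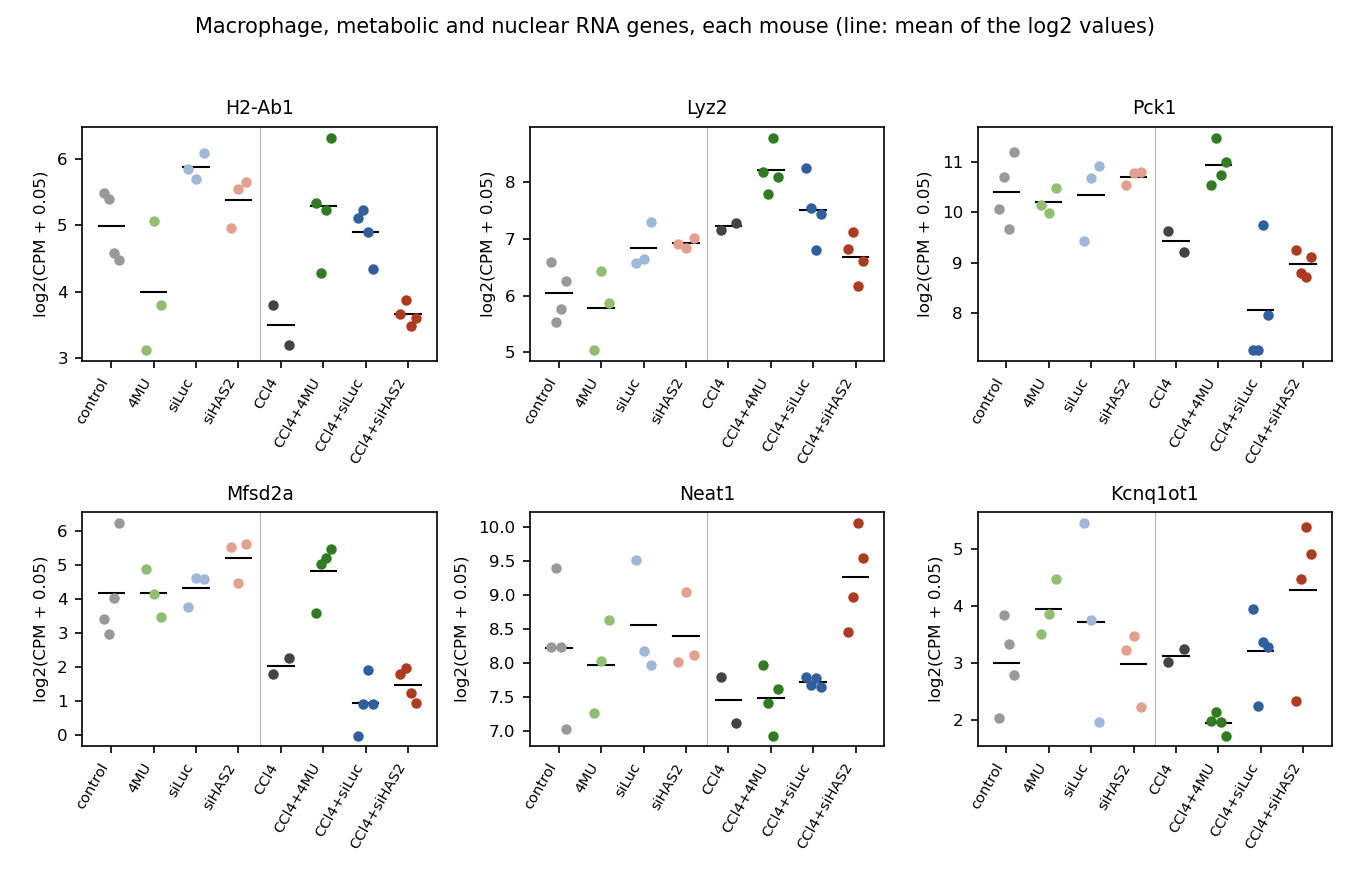
Level of 6 genes as log2(CPM + 0.05) in each mouse of the 8 groups, 1 point per mouse with the mean of the log2 values as a line. H2-Ab1, Lyz2, Pck1 and Mfsd2a are higher in all 4 CCl4+4MU mice than in all 4 CCl4+siHAS2 mice, and Neat1 and Kcnq1ot1 are lower.

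Protein coding genes lower with 4MU fell on few of the lists. Chka, the choline kinase of phosphatidylcholine synthesis, was at 34.5, 57.6, 50.3 and 27.4 CPM against 84.7, 135, 199.6 and 118 CPM (log2 fold change -1.66, SE 0.42, adjusted p = 0.049). Erbb4, a neuregulin receptor, was at 1.76, 1.5, 2.70 and 0.996 CPM against 3.01, 4.88, 4.21 and 3.34 CPM (log2 fold change -1.16, SE 0.29, adjusted p = 0.0475). Grb10, an adaptor that dampens insulin signalling, had a log2 fold change of -1.05 (SE 0.24, adjusted p = 0.0294), and Mal2, a protein of apical transport in hepatocytes, had a log2 fold change of -1.05 (SE 0.23, adjusted p = 0.0244). Pabpn1, the nuclear poly(A)-binding protein, had a log2 fold change of -0.98 (SE 0.21, adjusted p = 0.0198). Ccl25, a chemokine of thymus and gut, was the single call on the lower side among 25 chemokine and cytokine genes (log2 fold change -0.97, SE 0.23, adjusted p = 0.0334), where Cxcl16 and Cx3cl1 were higher. Iqcn, Pigw, Tmed5 and Foxn2 were lower by 1.91, 1.03, 0.99 and 0.97 on the log2 scale, with adjusted p of 0.034, 0.0244, 0.0464 and 0.0161. Every one of these 10 genes lost the call without CCl4+4MU mouse 4 or CCl4+siHAS2 mouse 3, and all but Pabpn1 without CCl4+siHAS2 mouse 2 (adjusted p 0.0533 to 0.21 over all fits that lost one). Of the 64 genes lower in CCl4 livers, 11 were also negative in uninjured livers, none was called lower there and 3 were called higher. Over all 14114 genes, 6875 were negative in uninjured livers, 1.12% were called lower there and 0.184% higher.

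One mouse carried a block of epithelial genes on the higher side. Dmbt1, a mucin-like glycoprotein of gut and duct epithelium, was at 0.861, 0.0499, 0 and 2350.4 CPM in the CCl4+4MU mice, almost all of it in mouse 4, and at 0.587, 0, 0 and 0 CPM in the CCl4+siHAS2 mice (log2 fold change 11.58, SE 2.36, adjusted p = 0.0168). Without that mouse the log2 fold change was 0.72 (adjusted p 0.88). The chloride exchanger gene Slc26a3 was at 0, 0, 0 and 34.7 CPM, the carbonic anhydrase gene Car9 at 0.301, 0.549, 0.296 and 34.8 CPM and the matrilysin gene Mmp7 at 0.817, 0.648, 0.628 and 44.0 CPM in the CCl4+4MU mice. Krt19, a keratin of bile ducts, was at 0.645, 1.15, 2.51 and 92.6 CPM, and Epcam, an adhesion protein of biliary and gut epithelium, at 1.38, 1.25, 1.63 and 19.6 CPM. Krt19 was the one called of 15 bile duct markers (log2 fold change 4.33, SE 1.04, adjusted p = 0.0388), and without mouse 4 it had 0.22 (adjusted p 0.902). The mitochondrial creatine kinase gene Ckmt1, the potassium channel gene Kcnq1, the sphingosine kinase gene Sphk1 and the choline transporter-like gene Slc44a4 showed the same single high mouse, and none of them was called without it (adjusted p 0.109 to 0.982 over Dmbt1, Slc26a3, Car9, Mmp7, Krt19, Ckmt1, Kcnq1, Sphk1 and Slc44a4). All 9 calls were also lost without CCl4+siHAS2 mouse 2 or 3 (adjusted p 0.0549 to 0.206), 7 without CCl4+siHAS2 mouse 4 and 4 without CCl4+siHAS2 mouse 1. Cx3cl1, the transmembrane chemokine fractalkine, was at 0.774, 0.349, 1.11 and 4.06 CPM against 0.313, 0.0977, 0.201 and 0 CPM (log2 fold change 3.09, SE 0.74, adjusted p = 0.0386) and lost its call without CCl4+4MU mouse 4 and without CCl4+siHAS2 mouse 2, 3 or 4.

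The remaining calls of lowest adjusted p in uninjured livers were Pon2, a paraoxonase of intracellular membranes, and Ube2q2, a ubiquitin-conjugating enzyme gene, both higher with 4MU. Pon2 was at 43.4, 48.5 and 49.3 CPM against 25.6, 33.1 and 27 CPM (log2 fold change 0.72, SE 0.14, adjusted p = 0.00649), and Ube2q2 at 21.9, 23.8 and 23.2 CPM against 12.2, 11.6 and 9.75 CPM (log2 fold change 1.03, SE 0.19, adjusted p = 0.00649). In CCl4 livers their log2 fold changes were 0.45 and 0.27 (adjusted p 0.056 and 0.367). On the negative side of the interaction stood the histone methyltransferase gene Kmt2d (interaction -1.24, SE 0.21, adjusted p = 0.00267), the chromatin ATPase gene Morc2a (interaction -0.91, SE 0.18, adjusted p = 0.00797), the RNA-binding protein gene Rbm12b1 (interaction -1.39, SE 0.30, adjusted p = 0.015) and the zinc finger gene Zkscan3 (interaction -1.28, SE 0.20, adjusted p = 0.00172). The Rbm12b1 interaction was lost without siHAS2 mouse 3 (adjusted p 0.0624), and those of Kmt2d, Morc2a and Zkscan3 held without each of the 14 mice.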

How the data were processed

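The authors isolated poly(A) RNA from liver homogenates, prepared libraries with a directional kit and sequenced them in paired-end mode. Per their methods, adapters were trimmed with Trimmomatic 0.39, reads were aligned to GRCm39 with HISAT2, and gene counts came from featureCounts in R 3.4.2 for read pairs without multimapping reads. The HISAT2 version and the strand setting are not given in the sources used here, so near-identical copies, overlapping genes and antisense partners are uncertain. The deposited table holds these raw counts for 55414 gene IDs in 27 columns, 1 for each mouse, of which 54749 IDs matched the annotation (GENCODE vM39).

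Genes with a mean under 10 counts were left out, as the study did. All 27 libraries entered 1 fit of edgeR 4.0.16 (R 4.3.3) with TMM scaling and the quasi-likelihood test, Benjamini-Hochberg adjustment over 14114 genes and a threshold of 0.05. CPM use the TMM-scaled library sizes. Contrasts were 4MU against siHAS2-LNP in CCl4 livers, in uninjured livers, and their difference. Alternatives were DESeq2 1.42.0, limma 3.58.1 (voom), other scalings, filters, group sets, a replicate block and leaving out each mouse. Leaving out both mice numbered 4 was chosen after seeing the data. With the members of the comparison given, the gene lists (42 lists) and settings were chosen with earlier results of these data known. Has2 site and siRNA sequences come from the study's supplementary table and the reference transcript.

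Genes were named by rule: in the main comparison the 15 of largest absolute log2 fold change in each direction among called genes whose 8 mice do not overlap, with a mean of at least 1 CPM in the higher group and no predicted genes, pseudogenes or immunoglobulin segments, up to 6 called genes per list and direction, the 5 of lowest adjusted p in each direction of the other contrasts, and 13 genes whatever their values (Has1, Has2, Has3, Cd44, Hmmr, Acta2, Col1a1, Col3a1, Fstl1, Ccl2, Hrg, Cyp3a11 and Cyp7a1). Others were chosen after their values were seen, among them Vsir, Gm43597, Dmbt1, Slc26a3, Car9, Mmp7, Ckmt1, Epcam, Ccr2, Ly6c2, Itih4, Timd4, Cd5l, Folr2, S100a8, S100a9, Saa1, Saa2, H2-Aa, H2-Eb1, Cdc20, Mki67, Ube2c, Mcm6, Ifit3, Isg15, Mvk and Fdft1. Libraries held 7044386 to 29425937 counts in the CCl4 groups compared, and a count of 0 allows 3 counts, which covers counting error only. Mice of the same number did not deviate together over all genes (correlations of -0.05, 0.06, 0.01 and 0.02 in the CCl4 groups and 0.11, 0.12 and -0.06 in the uninjured groups). The numbers were therefore not taken to pair mice. No pair of libraries within a group agreed within sampling noise.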

Additional observations from a re-analysis of the deposited data

Results flagged for a closer look

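In 24 of 230 groups of 4 mice (115 named genes in CCl4+4MU and in CCl4+siHAS2), 1 mouse lay apart from the other 3 by Dixon's test, its gap to the nearest mouse taking a share of the group's range above the critical value. Chance gives about 1 in 20 in groups that were not chosen by their values. That rate is no yardstick here, since genes such as Dmbt1, Slc26a3, Car9, Mmp7, Ckmt1 and Epcam were named after their values were seen and the genes share the same mice. CCl4+4MU mouse 4 was the high one in 14 of the 24. The gap took 0.869 of the range for Acta2, 0.993 for Car9, 0.994 for Ckmt1, 1.0 for Dmbt1, 0.979 for Epcam, 0.893 for Hk1, 0.991 for Kcnq1, 0.98 for Krt19, 0.996 for Mmp7, 0.851 for Mvk, 0.891 for Saa2, 1.0 for Slc26a3, 0.974 for Slc44a4 and 0.971 for Sphk1. Of the remaining 10, the gap in CCl4+siHAS2 mouse 2 (highest) took 0.84 for Adgre1, CCl4+4MU mouse 3 (highest) took 0.926 for Cx3cr1, CCl4+siHAS2 mouse 1 (highest) took 1.0 for Dmbt1 and 0.92 for Hrg, CCl4+siHAS2 mouse 1 (lowest) took 0.849 for Foxn2, CCl4+4MU mouse 2 (highest) took 0.872 for Jpx, CCl4+siHAS2 mouse 4 (highest) took 0.897 for Krt19 and 0.834 for Lpin2 and CCl4+siHAS2 mouse 3 (highest) took 1.0 for Slc26a3 and 0.878 for Zkscan3.

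For 54 named genes the 4MU-siHAS2 difference in CCl4 livers was not the same as that in uninjured livers by the interaction test of edgeR, 44 of them with a positive value. Named genes were in part chosen for this test, so their number is no measure of how common it is. Among leukocyte and macrophage genes, the interaction on the log2 scale was 2.01 for Adgre1, 2.06 for C1qa, 2.2 for C1qb, 2.17 for C1qc, 2.99 for Ccr1, 1.75 for Cd5l, 2.77 for Cd74, 2.04 for Clec4f, 2.15 for Csf1r and 2.4 for Ctss. It was 2.72 for Cx3cr1, 1.48 for Cxcl16, 2.22 for Fcgr3, 2.48 for H2-Aa, 3.01 for H2-Ab1, 2.67 for H2-Eb1, 2.59 for Itgax, 1.66 for Laptm5, 2.02 for Ly86 and 2.57 for Lyz2, and 4.33 for Marco, 1.85 for Pld4, 2.16 for Rac2, 1.73 for Tifab, 2.66 for Trem2, 2.02 for Tyrobp, 2.04 for Vsig4, 1.88 for Vsir, 1.81 for Ifi27l2a and 1.57 for Cd44. Among metabolic, acute phase and channel genes it was 1.59 for Aldoc, 1.69 for Fdft1, 2.11 for Mvk, 1.37 for Lhpp, 1.98 for Lpin1, 4.43 for Mfsd2a, 2.49 for Pck1, 5.44 for Kcnq1, 5.01 for Saa1 and 6.96 for Saa2. The cell cycle genes had interactions of 4.83 for Cdc20, 3.05 for Mcm6, 2.44 for Mki67 and 2.93 for Ube2c. The 10 negative interactions were -1.28 for Gm43597, -2.77 for Iqcn, -2.42 for Itgb2l, -1.75 for Jpx, -3.63 for Kcnq1ot1, -1.24 for Kmt2d, -0.91 for Morc2a, -1.37 for Pabpn1, -1.39 for Rbm12b1 and -1.28 for Zkscan3.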

How the results depend on the processing

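In CCl4 livers, the 172 calls became 505 with DESeq2 (164 of the 172 kept), 1024 with limma-voom and quality weights (161 kept, 467 higher and 557 lower, against 108 and 64), 975 without a low-count filter (162 kept), 92 with the CCl4 groups alone in the fit (75 kept), and 14 without both mice numbered 4 (14 kept). With the CCl4 groups alone in the fit, 34 of the 74 named genes called in CCl4 livers were no longer called. Leaving out 1 mouse of the 8 gave 13 to 390. DESeq2 size factors in edgeR gave 171 (170 kept), filterByExpr 190 (166 kept) and the compared groups alone 187 (103 kept). Without a filter, 8 of 13 Kupffer markers were higher in place of 5, and 4 to 6 were with 1 mouse left out. Monocyte markers called higher (9 of 26) were 15 with limma-voom, 16 without a filter, 0 without both mice numbered 4, and 0 to 10 with 1 mouse left out. In uninjured livers the 184 calls became 378 with DESeq2, 415 with limma-voom and 521 without a filter, and 47 to 191 with 1 mouse left out, the fewest being 47 without 4MU mouse 1, 52 without siHAS2 mouse 2, 64 without 4MU mouse 3 and 92 without siHAS2 mouse 3. The 257 interactions became 563 with DESeq2, 1039 with limma-voom, 816 without a filter, 529 with the compared groups alone and 117 without both mice numbered 4, and 101 to 433 with 1 mouse left out, from 101 without 4MU mouse 1 to 433 without CCl4+siHAS2 mouse 1. The cause of these shifts was not tested, beyond the larger or smaller set of genes or mice that an alternative holds by construction.

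A few genes changed sign. Without both mice numbered 4, the log2 fold change was -0.17 for Ccl2, -0.009 for Epcam, 0.09 for Mcm6 and -1.81 for Slc26a3. With 1 mouse left out, the log2 fold change ran from -0.14 to 0.53 for Ccl2 (negative without CCl4+4MU mouse 4 or CCl4+siHAS2 mouse 2), from -0.045 to 0.67 for Col1a1 (negative without CCl4+4MU mouse 3), and from -0.32 to 0.082 for Fstl1 (positive without CCl4+4MU mouse 4 or CCl4+siHAS2 mouse 2). Epcam, Mcm6 and Slc26a3 turned as well without CCl4+4MU mouse 4, which makes 5 genes with that mouse left out, and their ranges over the 8 fits were -0.017 to 2.39 for Epcam, -0.56 to 0.08 for Mcm6 and -1.68 to 10.6 for Slc26a3. Slc26a3 was called with all mice, and the others were not.

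The replicate block gave 108 calls in CCl4 livers (104 of the 172 kept), 143 in uninjured livers and 179 interactions. The labels do not pair mice of the same number, so a call missing under the block is not read as a smaller difference. Correlations over all genes cannot show whether the numbers share a batch that touches some genes, and this was not tested. With 3 or 4 mice a group and 1 library of 7044386 counts, differences in genes of a few counts, the synthases included, were not detectable.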
